A study of Mus musculus with 12 samples.

Results

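Airway macrophages (AMs) of wild-type and Scnn1b-Tg mice were compared for 10 genes of the Nrf2 antioxidant and glutathione system, with and without lipopolysaccharide (LPS). The genes were Nfe2l2, Slc7a11, Gclc, Gclm, Gsr, Txnrd1, Srxn1, Prdx1, Nqo1 and G6pdx, chosen by name. All 10 were among the 20551 genes of the count table, and all 10 were among the 13729 genes with enough counts to be tested. Scnn1b-Tg mice overexpress the beta subunit of the epithelial sodium channel in airway epithelium from the club cell secretory protein promoter, which gives them mucus-obstructed airways, and their WT littermates served as controls. Both were on a C57BL/6 background, and the study used 6-week-old mice. The labels state that lavages of 3 to 4 animals were pooled, and each numbered sample is called a pool here. Each of the 6 pools (WT pools 16, 17 and 18, Scnn1b-Tg pools 17, 18 and 19) gave 1 library from cells kept in medium and 1 from cells given 100 ng/ml LPS from Pseudomonas aeruginosa for 12 h. That makes 4 groups of 3 libraries, named here by genotype and treatment.

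Nrf2, the protein of Nfe2l2, is a transcription factor that is held in the cytoplasm and degraded through its partner Keap1 until oxidants or electrophiles modify Keap1. It then enters the nucleus, pairs with a small Maf protein and binds antioxidant response elements near genes that make glutathione, recycle thioredoxin and peroxiredoxins, and supply NADPH. In macrophages this system limits damage from the oxidants that the cells themselves release when they meet bacterial products. Because Nrf2 is controlled largely as a protein, the RNA of Nfe2l2 is not a measure of Nrf2 activity.

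The 12 libraries held 48191248 to 60896505 counts each, with 14918 to 16165 genes detected. All 12 airway macrophage markers that were listed (among them Siglecf, Marco, Chil3 and Pparg) were detected in every group. Their summed level was 11896 to 12869 CPM (counts per 1000000 of the scaled library total) in WT medium, 14131 to 17513 in Scnn1b-Tg medium, 8900 to 11167 in WT LPS and 10649 to 15796 in Scnn1b-Tg LPS, most of it from Chil3. Summed markers of airway and alveolar epithelium stood at 32.0 to 110 CPM, those of fibroblasts and endothelium at 50.0 to 96.6 CPM, most of it Vwf and with Dcn at 4.05 to 8.83 CPM in the LPS libraries, and those of neutrophils at 15.2 to 37.8 CPM. Sums for monocytes and interstitial macrophages, eosinophils, lymphocytes and dendritic cells were at most 20.5 CPM. Scnn1b did not separate the genotypes, at 0 to 0.755 CPM in WT and 0.0704 to 0.55 CPM in Scnn1b-Tg libraries, and a promoter of club cells gives no check of genotype in macrophages. The labels describe adherent lavage cells and the study's methods describe sorted CD45+ Siglec-F+ CD11c+ cells, so which isolation these libraries had, and with it the number of animals in each, is not settled. In bulk libraries such as these, fewer expressing cells and less RNA per cell cannot be told apart.

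Promoter windows of 8 of the 10 genes were at hand from RefSeq on GRCm38.p6, each covering 250 bases before and 50 bases after a transcription start (10 windows, 3 of them for Txnrd1). They were searched on both strands for the core of the antioxidant response element, TGACNNNGC. A core lay in the windows of 6 of the 8 genes (Nfe2l2, Gclm, Txnrd1, Prdx1, Srxn1 and G6pdx). Counted by window, 6 of the 10 held a core, against 12.4% of all 32851 windows of the genome. The variant TGAGNNNGC, searched after the data were seen, lay in windows of Slc7a11, Prdx1 and Srxn1 and in 17.6% of all windows. The AP-1 motif TGACTCA, which can lie within either core, was in windows of Prdx1 and Srxn1 and in 5.2% of all windows. Neither core was in the Nqo1 window. The stretches below are shown because the first 5 belong to genes that rose with LPS and the last to the gene that fell, and each holds a core (in capitals) on either the gene's strand or its opposite; the cores shown for Srxn1 and Slc7a11 are the TGAGNNNGC variant. They run 5′ to 3′ along the gene's own strand.
Srxn1 (chr2:152105459-152105507, + strand, core 45 bases before the start): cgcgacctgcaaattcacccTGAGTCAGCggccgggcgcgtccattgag
Prdx1 (chr4:116685446-116685494, + strand, 133 bases before): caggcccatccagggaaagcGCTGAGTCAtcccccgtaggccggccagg
Gclm (chr3:122245403-122245451, + strand, 134 bases before): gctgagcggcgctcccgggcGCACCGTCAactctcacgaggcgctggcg
Txnrd1 (chr10:82859094-82859142, + strand, 92 bases before): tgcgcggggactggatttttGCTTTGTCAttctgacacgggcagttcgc
Slc7a11 (chr3:50443682-50443730, − strand, 97 bases before): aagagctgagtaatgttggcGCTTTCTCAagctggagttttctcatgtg
G6pdx (chrX:74428909-74428957, − strand, 57 bases before): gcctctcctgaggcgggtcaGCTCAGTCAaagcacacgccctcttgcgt
A match is a string of letters and not a measured binding site, and the core stood in the promoter of the gene that fell as well as in promoters of genes that rose. Not shown are the TGACNNNGC core of Nfe2l2, which did not pass with LPS, 240 bases before its start, and that of Srxn1, 28 bases after its start.

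Levels between genes were compared as CPM per kb of exon. In WT medium Prdx1 was far above the rest at 4063 ± 671 CPM per kb (SD, n = 3), and Srxn1 followed at 284 ± 12.4, Gsr at 242 ± 2.79, Txnrd1 at 172 ± 7.2 and G6pdx at 148 ± 8.31. Nfe2l2 stood at 82.1 ± 1.26 CPM per kb, Gclm at 71.4 ± 4.26, Nqo1 at 47.0 ± 8.47, Gclc at 27.2 ± 2.37 and Slc7a11 at 26.6 ± 1.42. Every neighbour in that order was separated in all 3 libraries except Gclc and Slc7a11. With LPS the order of the WT libraries changed below Prdx1: Srxn1 stood at 617 ± 41.5 and Txnrd1, now above Gsr, at 366 ± 13.6, and Slc7a11, the lowest gene in medium, reached 129 ± 23.3 CPM per kb, a level not separated from Gclm.

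Exposure to LPS was the first comparison, asking how AMs of each genotype respond to a bacterial product. Of the 10 genes, 8 rose in WT and the same 8 rose in Scnn1b-Tg AMs (Slc7a11, Gclc, Gclm, Gsr, Txnrd1, Srxn1, Prdx1 and Nqo1), G6pdx fell in both, and Nfe2l2 did not pass in either. Among all genes tested, 15.5% were called higher and 16.2% lower in WT, and 19.3% higher and 18.7% lower in Scnn1b-Tg (edgeR quasi-likelihood test, Benjamini-Hochberg adjusted p under 0.05). The median log2 fold change of the 10 genes was 0.63 in WT and 0.93 in Scnn1b-Tg, against 0.00 and -0.02 over all genes tested. For the 9 genes called, the LPS libraries did not overlap the medium libraries of the same genotype. The share of all genes separated by LPS in this way was not computed. This count, and those of markers below, therefore cannot be weighed against it. Macrophage markers moved with LPS too, in both directions: in each genotype 8 of the 12 were lower in LPS without overlap, 3 were higher and 1 overlapped. In WT, Siglecf stood at 112 to 121 CPM in medium and 8.67 to 13.5 CPM in LPS, while Marco went from 587 to 661 CPM up to 1131 to 1348 CPM, and Car4 and Plet1 were the others that were higher. The part of these markers in the change of the antioxidant genes was not tested.

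**Figure D1:**
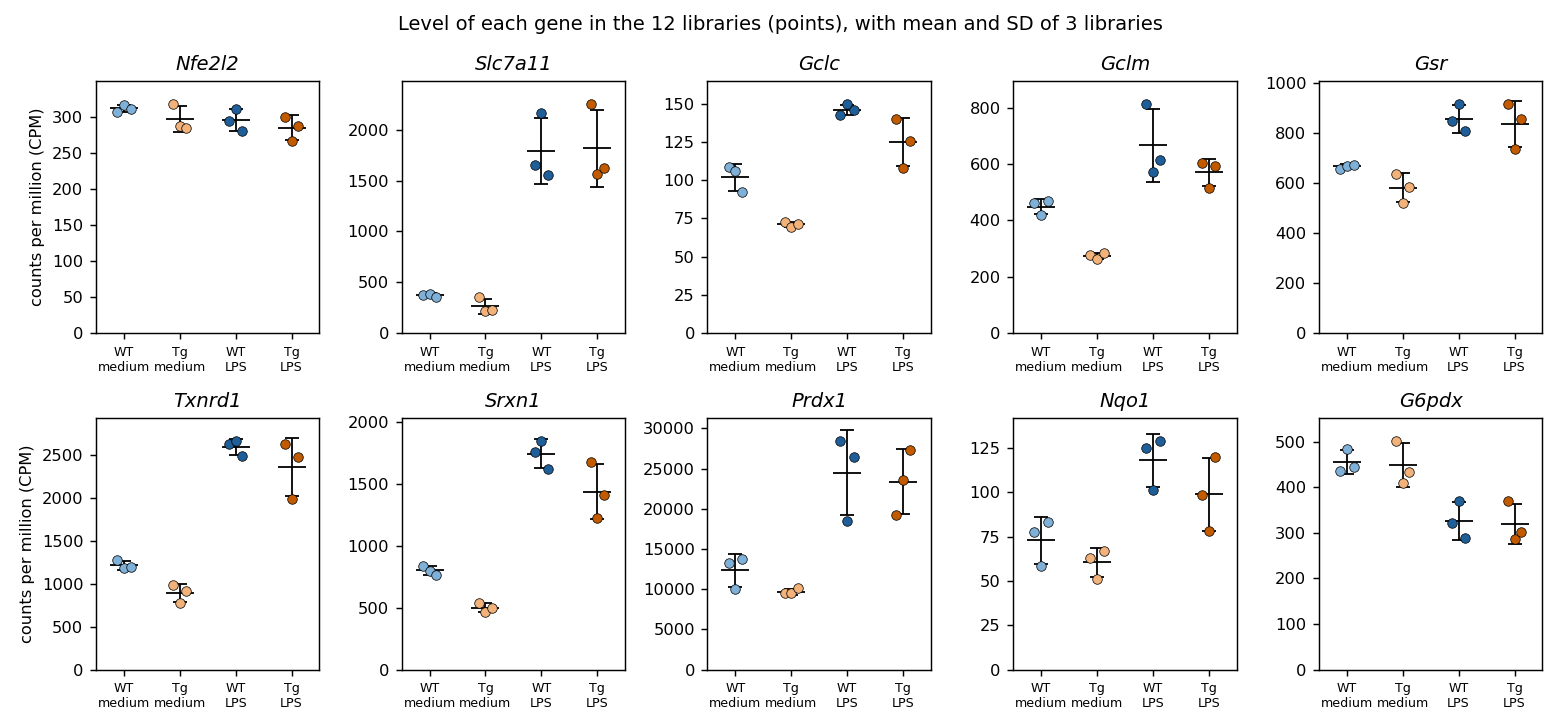
CPM (y axis, linear, from 0) of each of the 10 genes in every library. Points are libraries grouped on the x axis by genotype and treatment, and bars are the mean and SD of 3 libraries; the LPS groups stand above medium for 8 genes and below it for G6pdx, and for Nfe2l2 medium and LPS overlap in each genotype.

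The transcription factor itself hardly moved. Nfe2l2 (chr2:75675513-75704641, − strand, mm10) was at 307, 317 and 311 CPM in the 3 WT medium libraries (pools 16, 17 and 18) and at 295, 311 and 280 CPM with LPS. In Scnn1b-Tg AMs it was at 318, 288 and 284 CPM in medium (pools 17, 18 and 19) and at 300, 266 and 288 CPM with LPS. The medium and LPS libraries of each genotype overlapped, as did the genotypes within each treatment, and the log2 fold change with LPS was -0.08 (95% interval -0.22 to 0.07) in WT and -0.06 (-0.20 to 0.08) in Scnn1b-Tg.

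The cystine importer had the largest change of the 10. Slc7a11 (chr3:49892526-50443614, − strand) encodes the light chain of the cystine-glutamate exchanger, which brings in the amino acid that limits glutathione synthesis. It was at 372, 389 and 350 CPM in WT medium and at 1655, 2162 and 1559 CPM in WT LPS. Scnn1b-Tg medium libraries held 351, 220 and 225 CPM and Scnn1b-Tg LPS libraries 2256, 1570 and 1627 CPM. Every LPS library was thus more than 4-fold above the medium library of its own pool. The fitted change was 4.80-fold (log2 2.26, SE 0.13, adjusted p = 3.36e-07) in WT and 6.90-fold (log2 2.79, SE 0.13, adjusted p = 5.57e-08) in Scnn1b-Tg by edgeR.

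Both subunits of glutamate-cysteine ligase, which makes the first bond of glutathione, rose less than the importer. The catalytic subunit Gclc (chr9:77754535-77794485, + strand) was at 109, 106 and 92.1 CPM in WT medium and 143, 150 and 146 CPM in WT LPS, and at 72.7, 69.6 and 71.2 CPM in Scnn1b-Tg medium and 140, 108 and 126 CPM in Scnn1b-Tg LPS. Scnn1b-Tg medium was the lowest of the 4 groups, with no library reaching any other group. Gclc rose by log2 0.52 (SE 0.08, adjusted p = 0.000674) in WT and 0.80 (SE 0.08, adjusted p = 2.07e-05) in Scnn1b-Tg AMs.

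Gclm (chr3:122245557-122270732, + strand), the modifier subunit that raises the activity of the ligase, was at 461, 418 and 467 CPM in WT medium and 813, 571 and 614 CPM in WT LPS. In Scnn1b-Tg AMs it was at 278, 261 and 283 CPM in medium and 603, 516 and 594 CPM with LPS. Here too Scnn1b-Tg medium lay below all other groups, while the LPS groups of the 2 genotypes overlapped. The rise was log2 0.57 (SE 0.12, adjusted p = 0.00441) in WT and 1.06 (SE 0.12, adjusted p = 4.7e-05) in Scnn1b-Tg. Exons of Gclm share 296 bases with the antisense gene Gm17494 and 244 with the pseudogene Gm6061, and reads were counted without strand, so reads of these genes cannot be told apart there.

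The reductases that spend NADPH to regenerate glutathione and thioredoxin both rose. Gsr (chr8:33652523-33698163, + strand), glutathione reductase, had the smallest rise of the 8: it was at 657, 669 and 671 CPM in WT medium, 846, 915 and 805 CPM in WT LPS, 636, 520 and 583 CPM in Scnn1b-Tg medium and 915, 735 and 855 CPM in Scnn1b-Tg LPS. The rise was log2 0.36 (SE 0.08, adjusted p = 0.00741) in WT and 0.53 (SE 0.09, adjusted p = 0.000528) in Scnn1b-Tg. Txnrd1 (chr10:82833951-82897712, + strand), the cytosolic thioredoxin reductase, was at 1274, 1180 and 1194 CPM in WT medium and 2633, 2667 and 2486 CPM in WT LPS. In Scnn1b-Tg it was at 983, 781 and 921 CPM in medium and 2633, 1984 and 2472 CPM with LPS. The groups were far apart by treatment, with a rise of 2.13-fold (log2 1.09, SE 0.10, adjusted p = 1e-05) in WT and 2.64-fold (log2 1.40, SE 0.10, adjusted p = 1.14e-06) in Scnn1b-Tg.

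Prdx1 (chr4:116685544-116700822, + strand) encodes a peroxiredoxin that breaks down hydrogen peroxide and was by far the most abundant of the 10. It was at 13282, 10024 and 13783 CPM in WT medium and 28471, 18517 and 26471 CPM in WT LPS, and at 9474, 9490 and 10101 CPM in Scnn1b-Tg medium and 19284, 23583 and 27290 CPM in Scnn1b-Tg LPS. Pool 17 of the WT animals was the lowest of its genotype in both treatments. The rise was 1.98-fold (log2 0.99, SE 0.16, adjusted p = 0.000812) in WT and 2.40-fold (log2 1.26, SE 0.16, adjusted p = 0.00011) in Scnn1b-Tg.

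Srxn1 (chr2:152105516-152111376, + strand), sulfiredoxin, repairs peroxiredoxins that hydrogen peroxide has overoxidised. WT medium libraries held 837, 799 and 767 CPM and WT LPS libraries 1757, 1848 and 1616 CPM, while Scnn1b-Tg libraries held 542, 464 and 501 CPM in medium and 1674, 1225 and 1412 CPM with LPS. In medium every Scnn1b-Tg library was below every WT library, and with LPS the genotypes overlapped. Srxn1 rose 2.17-fold (log2 1.12, SE 0.08, adjusted p = 2.01e-06) in WT and 2.85-fold (log2 1.51, SE 0.08, adjusted p = 1.61e-07) in Scnn1b-Tg.

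Nqo1 (chr8:107388225-107403206, − strand), a quinone reductase that is widely used as a readout of Nrf2, was at 77.6, 58.2 and 83.2 CPM in WT medium and 125, 101 and 129 CPM in WT LPS. It was at 62.8, 51.3 and 67.0 CPM in Scnn1b-Tg medium and 98.5, 78.3 and 120 CPM in Scnn1b-Tg LPS. WT pool 17 and Scnn1b-Tg pool 18 were lowest in both treatments. The rise was log2 0.70 (SE 0.18, adjusted p = 0.0111) in WT and 0.71 (SE 0.18, adjusted p = 0.0085) in Scnn1b-Tg. The WT call did not hold without the WT LPS library of pool 18 or without the WT medium library of pool 17, with an adjusted p of up to 0.0502.

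G6pdx (chrX:74409483-74429194, − strand) encodes glucose-6-phosphate dehydrogenase, which opens the pentose phosphate pathway and makes NADPH, and it moved the other way. It was at 436, 484 and 445 CPM in WT medium and 321, 370 and 288 CPM in WT LPS, and at 502, 409 and 433 CPM in Scnn1b-Tg medium and 370, 287 and 301 CPM in Scnn1b-Tg LPS. In both genotypes each LPS library was below each medium library. The log2 fold change was -0.49 (SE 0.09) in both, with an adjusted p of 0.00122 in WT and 0.000871 in Scnn1b-Tg. G6pdx exons overlap Ikbkg over 418 bases, and its copy G6pd2 had 0 to 5 counts per library.

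**Figure D2:**
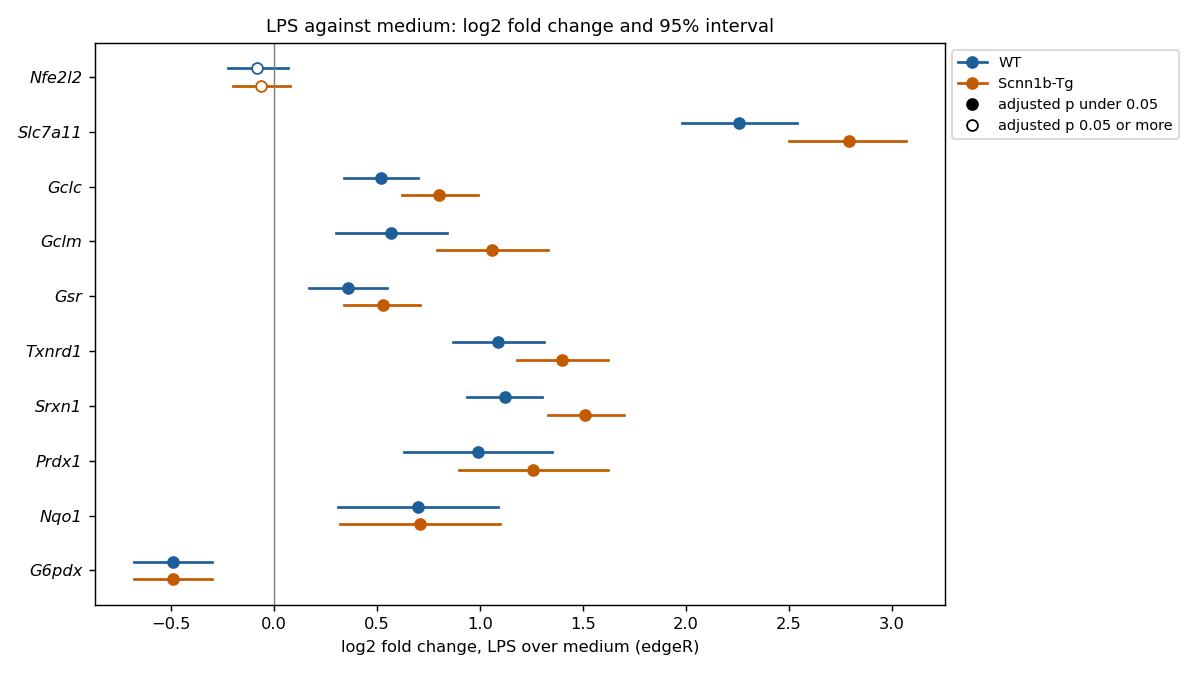
Log2 fold change of LPS over medium (x axis) for each gene (y axis) in WT and Scnn1b-Tg AMs, with 95% intervals from edgeR; filled points have an adjusted p under 0.05. In both genotypes 8 genes lie right of 0, led by Slc7a11 at 2.26 and 2.79, and G6pdx lies at -0.49.

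The second comparison, Scnn1b-Tg against WT in medium, asks whether AMs from mucus-obstructed airways differ after 12 h of culture without LPS. These were cultured cells and not cells taken fresh from the airways. The log2 difference was below 0 for 9 of the 10 genes, with a median of -0.39 against 0.01 over all genes tested. Srxn1, the repair enzyme of peroxiredoxins, was the only one of the 10 that passed (log2 -0.61, SE 0.08, 95% interval -0.80 to -0.43, adjusted p = 0.0198 by edgeR), which is 1.53-fold lower in Scnn1b-Tg. Across all genes 0.168% were called lower and 0.168% higher. Without any 1 of 5 medium libraries (WT pools 16 and 18, and each of the 3 Scnn1b-Tg pools) Srxn1 lost its call, with an adjusted p of up to 0.171 and a log2 difference that stayed between -0.67 and -0.58 in all alternatives.

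The ligase subunits lay just outside the threshold. Gclm differed by log2 -0.69 (SE 0.13, 95% interval -0.97 to -0.42) and Gclc by -0.48 (SE 0.09, -0.67 to -0.29), each with an adjusted p of 0.0524 by edgeR. Each was past the threshold under 6 of 22 alternatives, among them DESeq2, a replicate block on the pool number in place of the batch (edgeR, adjusted p = 0.0453 for Gclc and 0.0452 for Gclm), Gclc without the Scnn1b-Tg LPS library of pool 18, and Gclm without the WT LPS library of pool 16 or 17. Only the numbers 17 and 18 occur in both genotypes, so WT pool 16 and Scnn1b-Tg pool 19 had no counterpart under that block. Txnrd1 differed by -0.40 (SE 0.10, adjusted p = 0.128), Prdx1 by -0.42 (SE 0.17, adjusted p = 0.307) and Slc7a11 by -0.38 (SE 0.12, adjusted p = 0.218). For Slc7a11 the Scnn1b-Tg library of pool 17 (351 CPM) reached the WT range, and the difference was -0.12 within the first library batch and -0.65 within the second. The first batch held WT pools 16 and 17 and Scnn1b-Tg pool 17, and the second held WT pool 18 and Scnn1b-Tg pools 18 and 19. Within a batch the genotypes were thus compared as 1 medium library against 2.

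Nqo1 differed by -0.30 (SE 0.18), Gsr by -0.16 (SE 0.09), Nfe2l2 by -0.04 (SE 0.07) and G6pdx by 0.05 (SE 0.09). The interval for Nfe2l2 ran from -0.19 to 0.11 and that for G6pdx from -0.15 to 0.24, so differences of that size in either direction were within error. At an unadjusted p under 0.05, 6 of the 10 genes were lower in Scnn1b-Tg (Slc7a11, Gclc, Gclm, Txnrd1, Srxn1 and Prdx1), against 5.81% of all genes tested. For 5 genes the ranges of the genotypes were separate (Gclc, Gclm, Gsr, Txnrd1 and Srxn1), all lower in Scnn1b-Tg, against 9.38% of all genes that were lower without overlap. Within each of the 2 library batches, again 1 library against 2, the 9 genes below 0 kept that sign except Nfe2l2, which was at 0.03 in the first.

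Sums of some cell type markers were separate between genotypes in medium, though most single markers overlapped. The sums for monocytes and interstitial macrophages, eosinophils, lymphocytes and dendritic cells overlapped. Those for fibroblasts and endothelium were higher in Scnn1b-Tg (81.7 to 96.6 CPM against 67.8 to 80.8), most of it Vwf. Of 12 macrophage markers 5 were higher in Scnn1b-Tg without overlap and 7 overlapped. Of 10 epithelial markers 1 was lower and 9 overlapped, and of 8 neutrophil markers 1 was higher and 7 overlapped. Of all genes tested, 9.38% were lower in Scnn1b-Tg medium without overlap, and the share that was higher was not computed. The summed macrophage markers were higher in Scnn1b-Tg (14131 to 17513 CPM against 11896 to 12869). The summed epithelial markers were lower (40.2 to 69.5 CPM against 76.1 to 102), led by Scgb1a1 at 13.9 to 29.0 CPM against 34.2 to 71.7. Krt5 was near the floor in both, at 0 in every Scnn1b-Tg library and at most 0.161 CPM in WT medium. Neutrophil markers summed to 27.3 to 37.8 CPM in Scnn1b-Tg medium and 20.7 to 24.2 CPM in WT medium, with Ngp at 0 in the former and S100a9 at most 0.0951 CPM. The part of these markers in the difference of the antioxidant genes was not tested.

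With LPS, none of the 10 genes was called between genotypes by edgeR or by DESeq2, where 0.051% of all genes were called higher and 0.0% lower in Scnn1b-Tg by edgeR. At an unadjusted p under 0.05, 2 genes were lower in Scnn1b-Tg, Gclc (log2 -0.19, 95% interval -0.38 to -0.01) and Srxn1 (-0.22, -0.40 to -0.03), against 2.59% of all genes. Gclc was the only gene whose LPS libraries did not overlap between genotypes, at 108 to 140 CPM in Scnn1b-Tg against 143 to 150 CPM in WT. Of all genes, 3.39% were lower in Scnn1b-Tg without overlap and 5.72% higher, and no gene of the 10 was higher in that way. Slc7a11 differed by 0.14 (95% interval -0.14 to 0.41), Prdx1 by -0.14 (-0.51 to 0.23) and Nqo1 by -0.29 (-0.69 to 0.11). Gclm differed by -0.20 (-0.48 to 0.08) and Txnrd1 by -0.09 (-0.31 to 0.13). Gsr differed by 0.01 (-0.19 to 0.20), Nfe2l2 by -0.02 (-0.17 to 0.13) and G6pdx by 0.04 (-0.15 to 0.23). The median over the 10 was -0.12, against 0.00 over all genes.

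**Figure D3:**
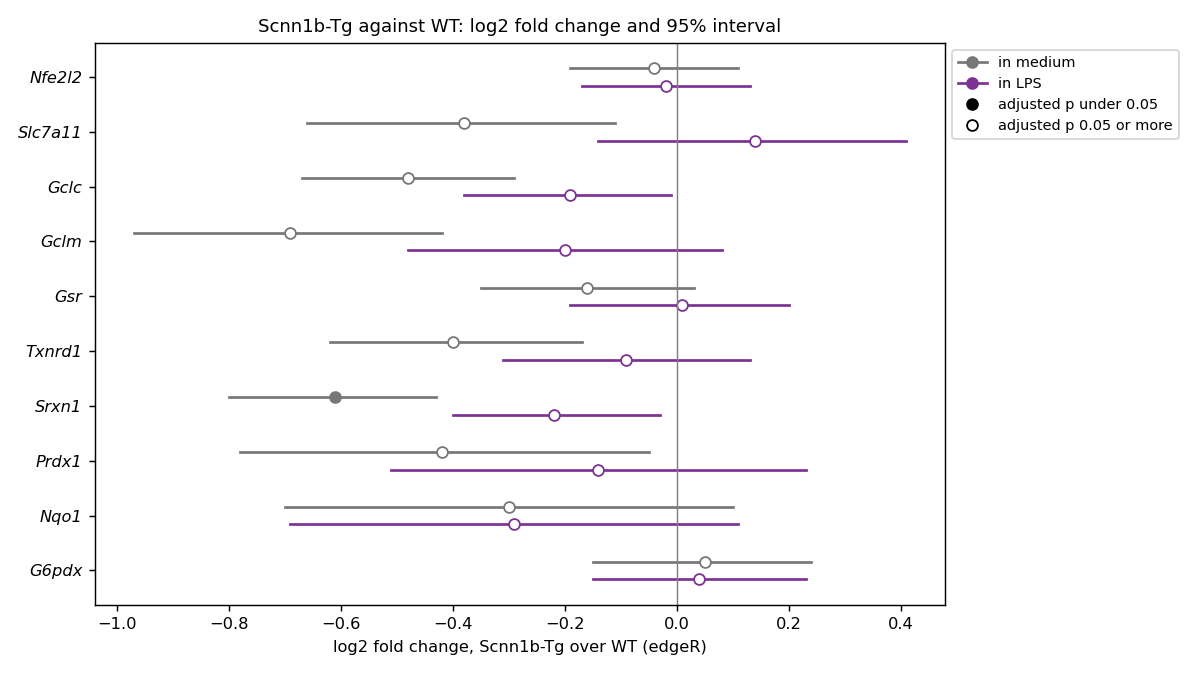
Log2 fold change of Scnn1b-Tg over WT (x axis) for each gene (y axis), in medium and in LPS, with 95% intervals from edgeR; the filled point has an adjusted p under 0.05. In medium 9 genes lie left of 0 and Srxn1 is filled at -0.61, and in LPS no point is filled.

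The third comparison asked whether the LPS response itself differed between the genotypes. It shares its medium and LPS libraries with the comparisons above, so a low medium level in Scnn1b-Tg enters both. No gene of the 10 was called, and 0.0% of all genes tested were called, by edgeR; DESeq2 called none of the 10 either. At an unadjusted p under 0.05, 5 genes had a larger response in Scnn1b-Tg, against 3.32% of all genes. These were Srxn1 with a log2 difference of 0.39 (SE 0.12, adjusted p = 0.573), Slc7a11 with 0.52 (SE 0.17, adjusted p = 0.67), Gclm with 0.49 (SE 0.17, adjusted p = 0.707), Gclc with 0.28 (SE 0.12, adjusted p = 0.787) and Txnrd1 with 0.31 (SE 0.14, adjusted p = 0.825). The difference was 0.01 for Nqo1 (95% interval -0.54 to 0.56), 0.02 for Nfe2l2 (-0.19 to 0.22) and 0.00 for G6pdx (-0.27 to 0.26). For Prdx1 it was 0.27 (-0.23 to 0.78) and for Gsr 0.17 (-0.10 to 0.43).

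The LPS response was also read pool by pool, since each pool gave both libraries. These ratios come from the same libraries and add no separate evidence of a difference. Srxn1 was 2.10 to 2.31 times higher with LPS in the WT pools and 2.64 to 3.09 times in the Scnn1b-Tg pools. Slc7a11 was 4.45 to 5.55 times higher in WT and 6.43 to 7.23 times in Scnn1b-Tg pools, and Txnrd1 2.07 to 2.26 and 2.54 to 2.68 times. Gclm ranged from 1.31 to 1.76 in WT and from 1.98 to 2.17 in Scnn1b-Tg, and Gsr from 1.20 to 1.37 and from 1.41 to 1.47. For these 5 genes the pools of the 2 genotypes did not overlap and the Scnn1b-Tg ratios were higher, against 9.18% of all genes tested. They include Gsr, whose response difference had an unadjusted p of 0.192 by edgeR, and leave out Gclc. Gclc (1.32 to 1.59 and 1.56 to 1.92), Prdx1 (1.85 to 2.14 and 2.04 to 2.70), Nqo1 (1.55 to 1.74 and 1.53 to 1.78), Nfe2l2 (0.901 to 0.982 and 0.923 to 1.01) and G6pdx (0.648 to 0.764 and 0.694 to 0.737) overlapped.

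**Figure D4:**
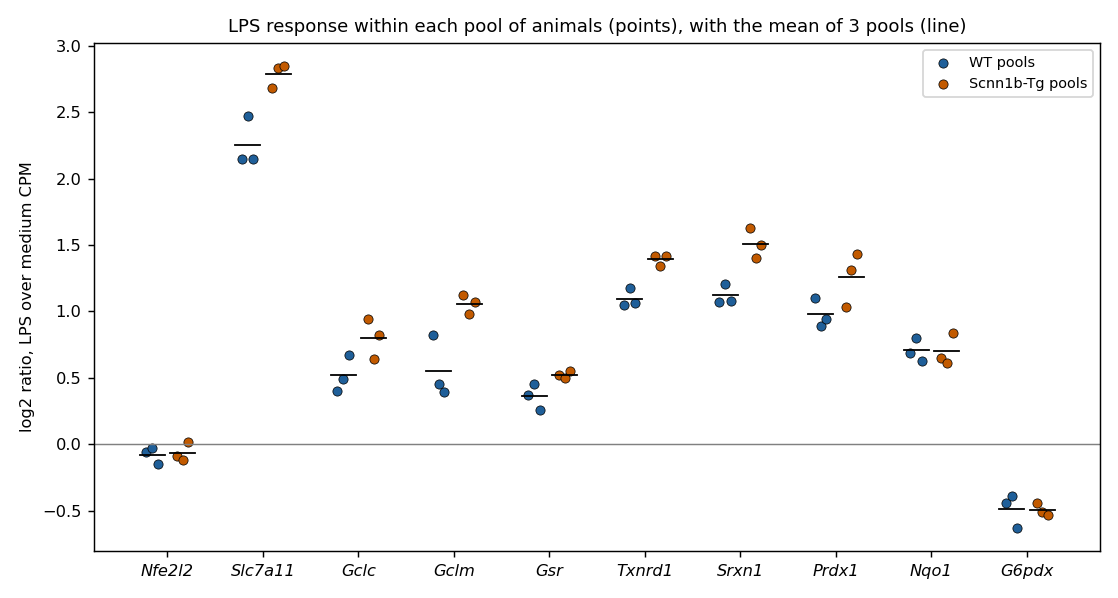
Log2 ratio of LPS over medium CPM (y axis) within each of the 6 pools, for each gene (x axis); points are pools and lines the mean of 3 pools. The Scnn1b-Tg pools lie above the WT pools without overlap for Slc7a11, Gclm, Gsr, Txnrd1 and Srxn1.

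Other genes of the pathway were taken from 7 lists by role, 88 genes in all, of which 84 could be tested (Cbs, Gpx8 and Gstt1 had too few counts, and Gpx7 was not analysed here). With LPS, 22 were higher and 26 lower in WT, and 25 higher and 27 lower in Scnn1b-Tg, against 15.5% and 16.2% of all genes in WT and 19.3% and 18.7% in Scnn1b-Tg. In both genotypes 21 of the 84 rose and 24 fell, where 13.8% of all genes tested rose in both and 13.6% fell in both, and none was called in opposite directions. The median log2 fold change was -0.09 in WT and 0.02 in Scnn1b-Tg against 0.00 and -0.02 over all genes.

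**Figure D5:**
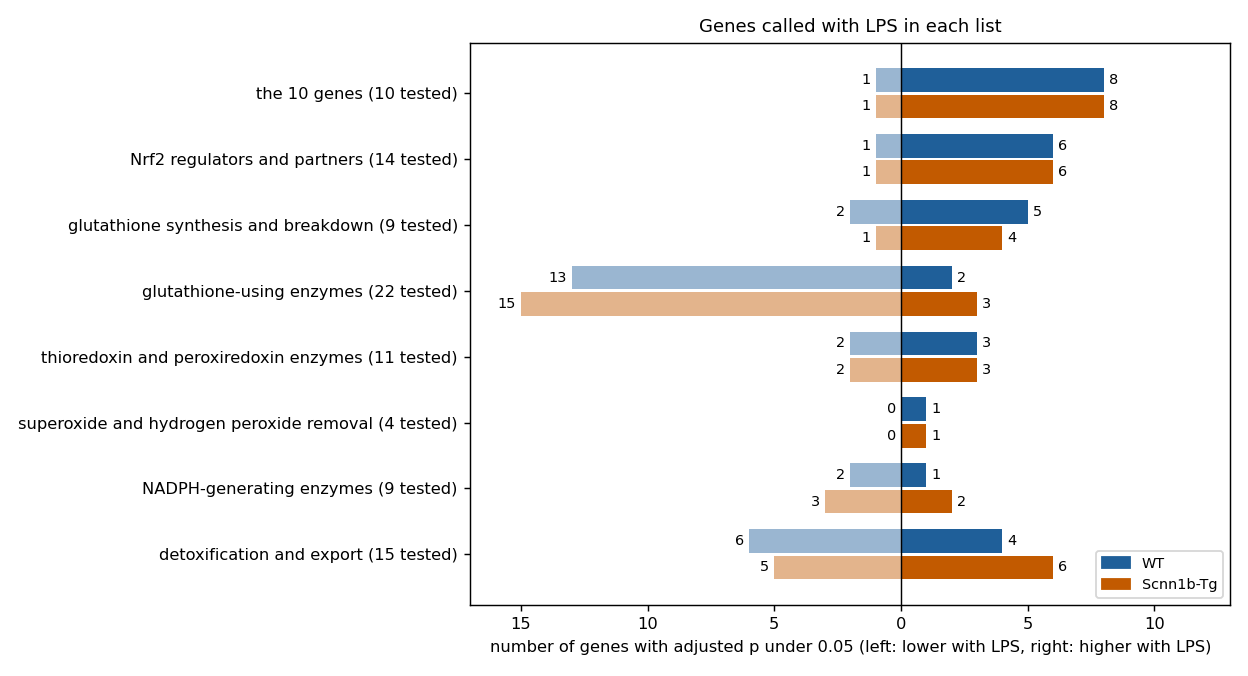
Number of genes called with LPS (x axis; lower to the left, higher to the right; edgeR adjusted p under 0.05) in the 10 genes and in each of 7 lists by role (y axis), for WT and Scnn1b-Tg. The glutathione-using enzymes have the most lower calls, 13 in WT and 15 in Scnn1b-Tg.

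Of Nrf2's regulators and partners, 6 of 14 rose and 1 fell in both genotypes. The small Maf partners Maff (20.6 ± 4.18 to 68.8 ± 7.60 CPM in WT, 23.2 ± 4.59 to 60.9 ± 5.09 CPM in Scnn1b-Tg) and Mafg (88.1 ± 8.23 to 209 ± 22.8 and 75.2 ± 6.97 to 216 ± 14.4) rose, and Sesn1, a sestrin, fell by log2 0.66 and 0.90. In glutathione synthesis and breakdown 4 of 9 rose and 1 fell in both. Slc3a2, the heavy chain that carries Slc7a11 to the membrane, rose by log2 1.49 (SE 0.17) in WT AMs and by 2.22 (SE 0.18) in those of Scnn1b-Tg mice. Gss, the synthetase of the second step, rose by 1.19 and 1.51, and Oplah, which returns 5-oxoproline to glutamate, fell by 1.71 and 1.47.

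Of the enzymes that use glutathione, 13 of 22 fell and 2 rose in both genotypes, beside the 13.6% and 13.8% of all genes. Gpx3, the extracellular glutathione peroxidase, fell from 11.0 ± 1.90 to 2.11 ± 0.826 CPM in WT AMs and, in Scnn1b-Tg AMs, from 16.5 ± 1.68 to 3.25 ± 0.876 CPM. Mgst3, a microsomal glutathione transferase, fell by log2 1.61 and 1.64. Glrx, glutaredoxin, was among the 2 that rose, by 0.53 (SE 0.12) and 0.62 (SE 0.12).

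Among 11 thioredoxin and peroxiredoxin enzymes 3 rose and 2 fell in both genotypes. Prdx5 rose in WT from 250 ± 24.3 to 845 ± 234 CPM and in Scnn1b-Tg from 295 ± 39.1 to 1105 ± 313 CPM, Prdx6 rose by log2 1.57 and 1.80, and the mitochondrial reductase Txnrd2 fell by 0.63 and 0.51, against the rise of its cytosolic counterpart Txnrd1. Sod2, mitochondrial superoxide dismutase, rose by 1.99 (SE 0.13) and 2.73 (SE 0.13) and was the only one of 4 enzymes of superoxide and peroxide removal that passed. Of 9 enzymes that make NADPH, 1 rose and 2 fell in both genotypes, beside 13.8% and 13.6% of all genes. Me1, the cytosolic malic enzyme, rose by 0.86 and 1.42 while Idh1 fell by 0.87 and 1.07 and Nnt by 0.54 and 0.81. In detoxification and export 4 of 15 rose and 5 fell in both. Abcc1, an exporter of glutathione conjugates, rose by 1.59 and 1.93, Hmox1, heme oxygenase, by 1.49 and 2.03, while the epoxide hydrolase Ephx1 fell by 1.34 and 1.51 and Blvra, biliverdin reductase, by 0.85 and 0.84. The WT call of Ephx1 was lost without the WT LPS library of pool 17 or the WT medium library of pool 16 or 18 (adjusted p up to 0.071), and that of Nnt without the batch term (adjusted p = 0.0814).

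Between genotypes, Hmox1, which breaks down heme and is a known Nrf2 target, was the only one of the 84 called in medium. It was at 905, 666 and 839 CPM in WT and 473, 511 and 451 CPM in Scnn1b-Tg medium libraries, and the groups did not overlap (log2 -0.74, SE 0.12, adjusted p = 0.042 by edgeR). The call held under 11 of 22 alternatives and was lost without any 1 of 9 libraries (Scnn1b-Tg medium and LPS of pools 17, 18 and 19, WT medium of pools 16 and 18, WT LPS of pool 18), with a log2 difference between -0.85 and -0.64. With LPS it was at 2441, 2098 and 2240 CPM in WT and 2126, 1824 and 1918 CPM in Scnn1b-Tg libraries, which overlapped (log2 -0.20, 95% interval -0.47 to 0.06). At an unadjusted p under 0.05, 11 of the 84 were lower and 4 higher in Scnn1b-Tg medium, against 5.81% and 7.59% of all genes.

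None of the 84 was called between genotypes in LPS or in the difference of the LPS response by edgeR, where 6 and 7 of them had an unadjusted p under 0.05, against 7.12% and 5.95% of all genes; DESeq2 called 0 and 1, the latter Sod2. The lowest unadjusted p in LPS were those of Oplah (log2 0.74, SE 0.21, adjusted p = 0.324), Prdx6 (-0.62, SE 0.21, adjusted p = 0.46) and Slc3a2 (0.47, SE 0.17, adjusted p = 0.569). For the response difference they were those of Sod2 (0.74, SE 0.18, adjusted p = 0.424), Hmox1 (0.54, SE 0.16, adjusted p = 0.632) and Slc3a2 (0.73, SE 0.24, adjusted p = 0.67). Sod2 was at 427, 333 and 360 CPM in WT medium and 271, 299 and 239 CPM in Scnn1b-Tg medium, and at 1575, 1311 and 1573 CPM in WT LPS and 1573, 1912 and 1883 CPM in Scnn1b-Tg LPS, so the order of the genotypes in the 2 treatments was opposite, with the LPS groups overlapping.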

How the data were processed

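RNA sequencing libraries (SMART-Seq v4, paired-end) of AMs were processed by the authors with the nf-core RNAseq pipeline: reads were aligned to mm10 with HISAT2 without strand, assembled with StringTie on GENCODE M20, and turned into counts per gene by StringTie's prepDE script. The deposited values are these estimated counts, whole numbers derived from coverage, and the column of every library was used (0 columns left out). From there, edgeR 4.0.16 in R 4.3.3 fitted all 12 libraries (TMM factors, filterByExpr with a minimum count of 10, library batch as a term; quasi-likelihood F test, two-sided, Benjamini-Hochberg over 13729 genes, threshold 0.05). CPM were TMM-scaled, and per-kb values used the summed exon length of GENCODE M21, which named 20132 of the 20551 genes. Batch is the label of that name; the study's methods used the date of library preparation. Alternatives used DESeq2 1.42.0 and limma 3.58.1, other scalings, filters and batch terms, and leaving out each library. The edgeR script was tested on simulated counts with known changes.

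Medium and LPS libraries of a genotype that carry 1 number in the labels were taken as 1 pool, and this rests on the labels. Their deviations from the group means correlated at 0.137 to 0.335 across genes, and those with other pools of the genotype at most at 0.0831. These correlations cannot decide the pairing, because deviations within a group sum to 0 and the batch was not removed. Scnn1b-Tg pool 17 (0.33) and WT pool 18 (0.335) were each alone of their genotype in a batch. WT and Scnn1b-Tg libraries share the numbers 17 and 18, and such libraries correlated at 0.11 to 0.261. Each of those numbers also lies in 1 library batch, and whether a number marks a litter or day is not given in the sources used here, so a block on the number was an alternative. Nothing in the labels says more of separate animals than the pools. The main fit had terms for group and batch and none for pool, so it took the 12 libraries as independent. Its p-values measure the spread of libraries within groups, and the pairing of medium and LPS libraries entered only the alternatives with a replicate block.

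The 10 genes and the lists were chosen with earlier results of these data known. All 10 are named in every comparison. From each list of related genes the text names up to 2 with the largest mean rise and 2 with the largest mean fall over both genotypes, among genes called the same way in both at 5 CPM or more on average and without overlap of medium and LPS libraries, and in the other comparisons those called or, with none called, the 3 with the lowest p. Promoter windows and their sequences are from RefSeq (GRCm38.p6). The count of the targeted transgene is given in the report.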

Additional observations from a re-analysis of the deposited data

How the results depend on the processing

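With LPS the direction of the 9 called genes was the same under all 23 alternatives in both genotypes, and 9 of the 10 passed under nearly all of them; leaving out 1 library gave 8 to 9 in WT and 9 in Scnn1b-Tg, and scaling by library size alone gave 10 in Scnn1b-Tg. That scaling shifted the median of all genes by -0.08 in WT and -0.12 in Scnn1b-Tg and turned the higher and lower calls of all genes from 2131 and 2228 into 1751 and 2768 in WT and from 2652 and 2573 into 2119 and 3326 in Scnn1b-Tg; Nfe2l2 then passed in Scnn1b-Tg (log2 -0.16).

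In medium, the 1 gene of the 10 called between genotypes became 4 with DESeq2, 2 with RLE factors, 2 with upper quartile factors, 2 with only the 6 libraries compared, 3 with counts divided by 5, 3 with the replicate block on the number in place of the batch, and 0 to 2 when leaving out 1 library. The 1 related gene became 7 with DESeq2, 0 without a filter, 0 with the 6 libraries, and 0 to 1 leaving out 1 library; in the response difference DESeq2 called 1 of them. Over all genes, 46 calls in medium became 501 with DESeq2, 18 without a filter, 28 without the batch, 20 with the 6 libraries, 77 with the replicate block on the number and 3 to 49 leaving out 1 library; 7 calls in LPS became 146 with DESeq2, 4 without the batch, 2 with the 6 libraries, 11 with the pool as a random replicate block, 12 with the number block and 2 to 10 leaving out 1; 0 calls of the response difference became 77 with DESeq2 and 0 to 1 leaving out 1. The pool as a fixed or random replicate block changed no call of the 10 genes. It raised the calls with LPS from 4359 to 5233 and 5305 in WT and from 5225 to 6098 and 6178 in Scnn1b-Tg, and those of related genes from 48 to between 56 and 58 and from 52 to between 53 and 57; as a random block it gave 32 calls in medium. The cause was not tested.

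Signs turned only for uncalled differences near 0. In the response difference, Nqo1 was at 0.00 without a filter, -0.01 by library size and -0.01 with either pool block, while leaving out 1 library gave -0.14 to 0.17. Nfe2l2 was at 0.00 by library size and -0.03 to 0.05 leaving out 1 library, and G6pdx at -0.09 to 0.07. Between genotypes in LPS, Gsr was at -0.01 without a filter, by upper quartile and by library size, -0.04 without the batch, 0.00 with 6 libraries and -0.06 with the number block, and G6pdx at -0.03 and -0.02 without the batch and with the number block; in medium G6pdx was at -0.02 under both. Leaving out 1 library gave, in LPS, Gsr -0.03 to 0.07, G6pdx -0.02 to 0.10, Nfe2l2 -0.05 to 0.01 and Prdx1 -0.27 to 0.02, and in medium G6pdx -0.01 to 0.13. At 3 pools a group, a difference whose 95% interval included 0 could not be told from 0. Some with an interval that left 0 out, among them Gclc and Gclm in medium, still were not called.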
